A study of Homo sapiens with 38 samples.

Results

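This account compares 16R6-4, a clone of the A375 melanoma line that acquired resistance to GSK436, with parental A375 when both were held for 24 h in the same low-dose drug combination, 10 nM GSK212 with 0.1 µM GSK436. It uses the 3 resistant and 3 parental arrays labelled with that treatment, 6 of the 38 arrays of the series. GSK436 (GSK2118436, dabrafenib) inhibits RAF kinases, and GSK212 (GSK1120212, trametinib) inhibits MEK. Arrays of the same lines in DMSO without drug (3 parental, 2 resistant) and in a higher combination, 10 nM GSK212 with 1 µM GSK436 (3 each), were used to place the comparison. All cells were grown in medium with 10% serum. The resistant cells are 1 clone, so that a difference between the lines may belong to resistance or to the clone itself, and these cannot be told apart here. No label tells if replicate arrays were separate cultures, so p-values here measure spread among these samples alone, which may be technical. With 3 arrays a group the precision is limited.

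A375 depends on signalling from RAF to MEK to ERK, a chain of kinases that drives growth in most melanomas. When ERK is active it switches on its own brakes, the DUSP phosphatases and the SPRY and SPRED proteins, together with transcription factors such as MYC, FOSL1 and the ETS factors ETV4 and ETV5. Messenger RNA of these genes is therefore widely read as a gauge of ERK activity. Melanoma cells also carry a neural crest and melanocyte programme, in which SOX10 and MITF are central, and its loss or gain is a familiar feature of drug-tolerant and resistant cells.

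Values are linear MAS5 signals, listed for replicates 1, 2 and 3 in that order. Differences are log2 resistant minus parental ± standard error from a limma fit over 18063 genes, and a gene was called at a Benjamini-Hochberg adjusted p under 0.05 with an absolute log2 difference of at least 1. Signals below 34.9, the median of all values in the series, are low, and a difference measured against them depends on the pseudocount of 2.8 added before the logarithm. Compared side by side, arrays correlated with r of 0.909 to 0.939 within parental cells (3 pairs), 0.939 to 0.947 within resistant cells (3 pairs) and 0.884 to 0.921 between the lines (9 pairs). RNA quality was uneven. The ratio of 3' to 5' actin control probe sets, which rises as RNA shortens, was 33.3, 18.4 and 11.0 in the resistant and 23.1, 4.26 and 4.64 in the parental arrays, so that replicate 1 of each line stood above the others. An alternative fit left out the 15 of 38 arrays with a high actin or GAPDH ratio. They include replicate 1 of both lines here, and their loss also changes the shared estimate of spread. A value from that fit therefore cannot be put down to those replicates alone. The resistant arrays left in it (18.4 and 11.0) still had higher actin ratios than the parental ones (4.26 and 4.64).

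In the combination the resistant clone had lower levels of 9 of 18 neural crest, 5 of 12 MHC class II and 8 of 18 matrix genes. Called higher were 5 of 14 matrix protease and inhibitor genes, 6 of 11 YAP targets and 5 of 21 ERK output genes. KISS1, which encodes the kisspeptin precursor, had the largest called difference upwards, and COL9A3, a chain of type IX collagen, the largest downwards. Of the 18063 genes 1148 were called (6.36%), 496 higher (2.75%) and 652 lower (3.61%) in resistant cells. The fit without the 15 arrays of high ratio gave 992. The split depended on scaling: 43.2% of called genes were higher as deposited, 51.7% after quantile normalization and 69.2% after centring each array on its median, which moved the median of all genes from -0.09 to 0.20.

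Without drug the lines differed in 657 genes (3.64%), 266 higher (1.47%) and 391 lower (2.16%). These 5 DMSO arrays share no array with the combination. Of the genes higher in the combination 167 were also higher in DMSO, which is 33.7% of the former and 62.8% of the latter. For lower genes the overlap was 204, or 31.3% of those in the combination and 52.2% of those in DMSO. Only NTM was called in opposite directions, and no gene went from higher in DMSO to lower in the combination.

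**Figure D1:**
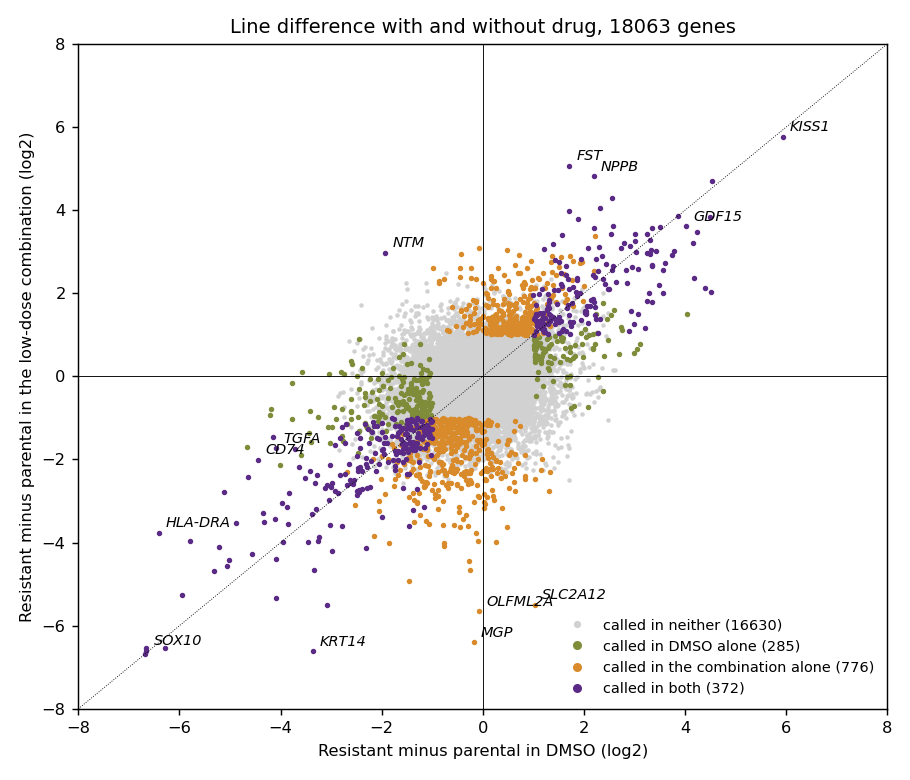
Each point is 1 of 18063 genes, with the resistant minus parental log2 difference in DMSO on the x axis and in the low-dose combination on the y axis. Colours mark calls: 372 genes were called in both, SOX10 and KISS1 among them near the dotted line of equal difference, while MGP, OLFML2A and SLC2A12 lie near 0 or above it in DMSO and far below 0 in the combination.

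The neural crest list was the most strongly lowered of the 32 gene lists by its median, with 9 of 18 measured members lower and 1 higher. Its median difference was -1.61, against -0.09 over all genes, and -0.47 in DMSO, where 7 were lower. SOX10, the transcription factor that specifies neural crest and melanocyte cells, gave signals of 3.39, 20.6 and 2.49 in resistant cells and 1310, 665 and 803 in parental cells. All 3 resistant arrays were below the median of all signals, and the groups were far apart (-6.60 ± 0.52, adjusted p = 1.62e-11). MIA, a protein that melanoma cells secrete, read 9.21, 20.9 and 33.4 against 1980, 1940 and 2090 (-6.53 ± 0.47, adjusted p = 1.77e-12). NGFR, the low-affinity nerve growth factor receptor and a neural crest stem cell marker, read 1.82, 1.84 and 1.36 against 235, 185 and 127 (-5.33 ± 0.51, adjusted p = 1.34e-09). These members were low in every resistant array. The change of their line difference with the drugs was not called, at 0.05 ± 0.78 for SOX10, 0.13 ± 0.70 for MIA and -1.23 ± 0.77 for NGFR.

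ERBB3, a receptor that binds neuregulins, showed a different course, since it rose with the drugs in both lines and stayed apart. It read 59.8, 71.3 and 47.6 in resistant cells and 1330, 1310 and 1340 in parental cells (-4.43 ± 0.48, adjusted p = 2.24e-08). From DMSO the parental level rose by 2.21 ± 0.48 and the resistant level by 2.80 ± 0.54. NES, the intermediate filament nestin, was also lower (-3.99 ± 0.53), as were the adhesion molecule L1CAM (-3.28 ± 0.29) and the transcription factors SOX5 (-2.21 ± 0.20) and FOXD3 (-2.88 ± 0.63). ZEB1, a repressor of epithelial genes, was the member called higher (1.02 ± 0.25, adjusted p = 0.00381). The ZEB1 call was lost with all probe sets averaged (0.58), without the 15 high-ratio arrays (0.87), without resistant replicate 1 (0.87) and without parental replicate 3 (0.99). SOX2, SOX5, FOXD3, L1CAM and ZEB1 are named here after their values were seen.

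SOX2, a stem cell transcription factor, was called lower in the combination but not in DMSO. Its signals were 70.4, 79.6 and 79.8 in resistant cells and 704, 1070 and 1110 in parental cells (-3.57 ± 0.25, adjusted p = 1.11e-12). In DMSO the 2 resistant arrays had read 43.1 and 64.2 and the 3 parental arrays 70.0, 87.7 and 80.8. These did not overlap either, but the difference of -0.56 ± 0.28 was not called. The parental level rose by 3.53 ± 0.25 with the combination, while the resistant change of 0.52 ± 0.28 did not pass the test. The change of the line difference itself was -3.01 ± 0.37 (adjusted p = 7.48e-06), and -2.13 (adjusted p = 0.0853) with all probe sets averaged.

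Of 17 measured pigmentation and lineage genes 1 was higher and 2 were lower, with a median of -0.47. MITF, the factor that governs pigment cell genes, was higher in resistant cells, at 1610, 1070 and 1370 against 517, 545 and 554 (1.30 ± 0.20, adjusted p = 1.08e-05), and did not overlap. When all probe sets of the gene were averaged its difference was 0.93 and under the threshold. The calcium-binding melanocyte marker S100B (-2.83 ± 0.68) and the MITF-associated co-regulator CITED1 (-2.74 ± 0.68) were lower. The S100B call was lost without the 15 high-ratio arrays (-2.19, adjusted p = 0.109).

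**Figure D2:**
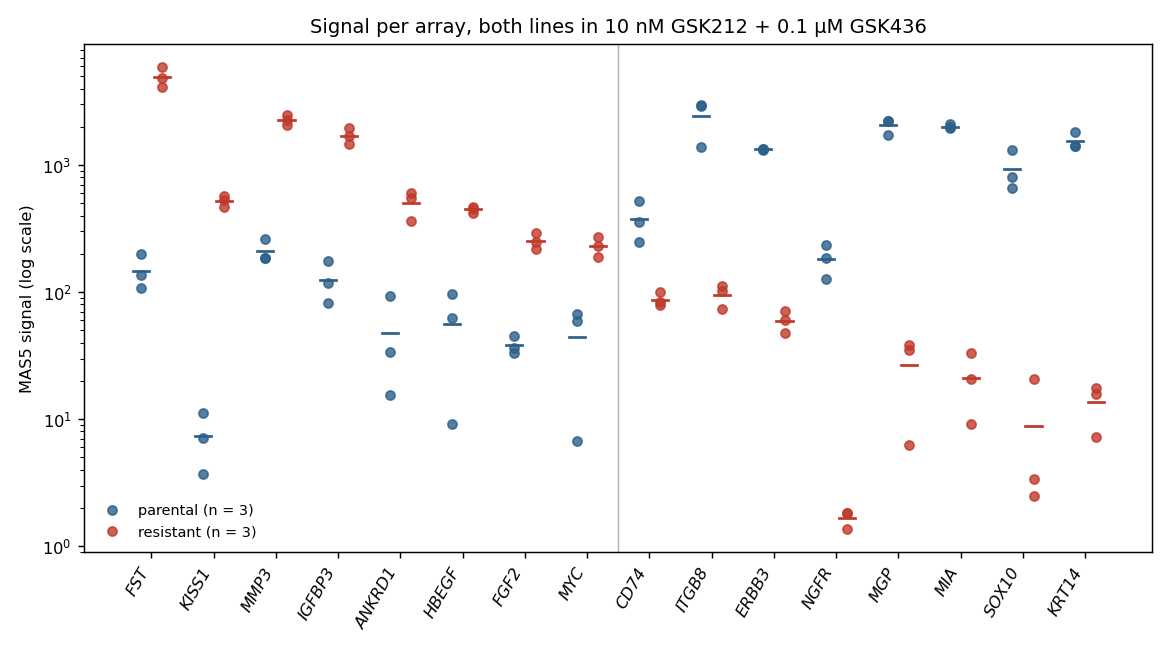
MAS5 signal on a log axis for 16 genes in the 3 parental (blue) and 3 resistant (red) arrays with 10 nM GSK212 and 0.1 µM GSK436, with a bar at each mean. The 8 genes on the left are higher in resistant cells, such as FST at 4100 to 5900 against 108 to 198, and the 8 on the right are lower, such as MIA at 9.21 to 33.4 against 1940 to 2090.

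MHC class II molecules present peptides to helper T cells and are made by a fraction of melanomas. Their genes are switched on together by the coactivator CIITA, which is recruited through a conserved set of promoter elements that ends in the Y box, a site for the factor NF-Y with the core ATTGG. Upstream sequence from RefSeq (GRCh38.p14) is shown for 2 members with a called difference to let the reader see the element, with each core, read on either strand as ATTGG or CCAAT, in capitals. The 250 bases before the start of HLA-DRB1 are at chr6:32589849-32590098 and those of CD74 at chr5:150412911-150413160, both on the minus strand.
HLA-DRB1: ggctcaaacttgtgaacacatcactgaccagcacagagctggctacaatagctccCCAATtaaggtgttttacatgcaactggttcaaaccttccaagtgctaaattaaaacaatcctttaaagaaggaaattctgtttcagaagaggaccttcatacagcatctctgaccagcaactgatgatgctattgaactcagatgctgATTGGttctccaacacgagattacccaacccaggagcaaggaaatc
CD74: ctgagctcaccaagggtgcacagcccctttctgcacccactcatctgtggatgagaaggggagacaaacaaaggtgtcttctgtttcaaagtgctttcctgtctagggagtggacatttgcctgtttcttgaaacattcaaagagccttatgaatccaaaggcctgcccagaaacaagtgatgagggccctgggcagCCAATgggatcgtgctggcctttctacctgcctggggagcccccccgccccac
The match nearest the start lies 46 bases upstream in HLA-DRB1 and 53 in CD74. Of 12 measured class II list genes 9 had at least 1 window in the table, and 8 of their 10 windows held the core on either strand, against 32.0% of all 35116 windows. Of 3 called members with a window 2 held the core, and HLA-DPA1 did not. The letters mark a match in sequence and not a measured site.

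In resistant cells 5 of the 12 class II list genes were lower and 0 higher, with a median of -0.81. HLA-DRA, the invariant alpha chain of HLA-DR, read 3.02, 16.2 and 11.1 against 87.4, 198 and 209 in parental cells (-3.76 ± 0.68, adjusted p = 0.000117). HLA-DRB1, its beta chain, read 51.3, 68.9 and 38.9 against 229, 317 and 247 (-2.28 ± 0.48, adjusted p = 0.000857). CD74, the invariant chain that guards the class II groove, read 83.1, 100 and 79.2 against 517, 247 and 356 (-2.00 ± 0.27, adjusted p = 9.68e-07). None of these overlapped between the lines. HLA-DPA1 (-1.48 ± 0.17) and HLA-DRB4 (-5.25 ± 0.47) completed the called members, and HLA-DRB4 was not called with all probe sets averaged (-1.68, adjusted p = 0.0571). HLA-DRB probe sets can share transcripts of near-identical genes, so the split between DRB1 and DRB4 is uncertain.

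In DMSO 7 of the 12 class II genes had been lower, with a median of -1.58. The change of the line difference with the drugs was positive for 12 of 12 (median 0.78, 0.04 over all genes). It was called for 1 of them, CD74. In DMSO CD74 had stood at 26.6 and 29.0 in resistant cells and at 570, 622 and 808 in parental cells, a difference of -4.44 ± 0.30. The resistant level rose by 1.55 ± 0.30 (adjusted p = 0.000496), and the parental mean signal went from 667 to 373. The change of the line difference was 2.43 ± 0.40 (adjusted p = 0.00049). With all CD74 probe sets averaged, that change was 0.93 (adjusted p = 0.976) and the difference in the combination -0.85 (adjusted p = 0.266), so both calls rest on the probe set chosen. HLA-DMA, which loads peptides, was called lower in DMSO (-1.70 ± 0.29) and stood at -0.85 ± 0.26 in the combination, under the size threshold. CIITA itself was near the level of low signals, at 24.9, 27.0 and 31.6 against 66.5, 32.4 and 2.25, and the groups overlapped (0.40 ± 0.87, adjusted p = 0.849). In the class I presentation list 1 of 12 measured genes was called, the peptide transporter TAP2 (1.01 ± 0.31). That call was lost with all probe sets averaged (0.65, adjusted p = 0.159), without the 15 high-ratio arrays (0.91) and when resistant replicate 1 or 3 or parental replicate 1 or 2 was left out (0.88 to 1.04). Among 17 interferon response genes 2 were lower, the transcription factors IRF7 (-1.84 ± 0.47) and IRF9 (-1.04 ± 0.26), and the IRF7 call was lost without the 15 high-ratio arrays (-1.53, adjusted p = 0.146), as was that of IRF9 (-0.91, adjusted p = 0.0826). IRF9 also fell under the size threshold without resistant replicate 3 or parental replicate 1 (-0.94 each).

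Of 18 measured matrix genes 8 were lower in the resistant clone, 1 was higher and 9 were not called, with a median of -0.59. The number lower was 6 without the 15 high-ratio arrays, after quantile normalization and after centring. COL9A3 read 29.0, 2.26 and 2.03 against 889, 1040 and 904 (-6.68 ± 0.48, adjusted p = 1.77e-12). THBS1, thrombospondin, a secreted matrix protein abundant in the parental line, read 1970, 1420 and 1710 against 7600, 8640 and 8190 (-2.27 ± 0.21, adjusted p = 7.79e-10). Both were lower to a like extent in DMSO (-6.69 ± 0.53 and -2.11 ± 0.24). Tenascin TNC (-1.91 ± 0.26), collagen COL5A1 (-1.87 ± 0.26) and fibronectin FN1 (-1.02 ± 0.24) were lower too, the last 2 named after their values were seen. The FN1 call was lost in 10 of 19 settings, among them all probe sets averaged (-0.56, adjusted p = 0.299), centring (-0.73, adjusted p = 0.172), the fit without the 15 high-ratio arrays (-0.77, adjusted p = 0.0854) and leaving out resistant replicate 1 or 3 or parental replicate 1 (-0.97 to -0.81). COL1A1, the main chain of type I collagen, was called at -1.14 ± 0.38 (adjusted p = 0.0408) but lost the call when any 1 of 5 of the 6 arrays was left out, all but resistant replicate 1 (-1.24 to -1.01), and without the 15 high-ratio arrays (-1.18, adjusted p = 0.141). COL13A1, a transmembrane collagen, was the member called higher (2.30 ± 0.55), and its level fell with the drugs by 6.19 ± 0.55 in parental cells and by 3.03 ± 0.61 in resistant cells. With all its probe sets averaged it was not called (0.21, adjusted p = 0.872).

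MGP, matrix Gla protein, an inhibitor of calcification, was the most drug-dependent of the matrix genes. Its signals were 35.1, 38.3 and 6.21 in resistant cells and 1720, 2230 and 2210 in parental cells (-6.40 ± 0.49, adjusted p = 7.4e-12). In DMSO every array of either line had read between 0.71 and 2.01. The parental level rose by 8.87 ± 0.49 and the resistant level by 2.65 ± 0.54, and the change of the line difference was -6.22 ± 0.73 (adjusted p = 3.07e-06).

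Integrins and laminins join cells to this matrix. Of 16 measured members 2 were lower and 1 higher. ITGB8, the partner of integrin alpha v that activates latent TGF-beta, read 111, 73.6 and 102 against 1380, 2890 and 2990 (-4.56 ± 0.41, adjusted p = 3.82e-10). ITGB4, the integrin beta chain of hemidesmosomes, was lower by -2.69 ± 0.48. Both rose with the drugs in both lines, ITGB8 by 2.48 ± 0.41 in parental and 2.98 ± 0.46 in resistant cells. The shares of all genes called higher with the drugs were 6.96% and 3.83%. The laminin chain LAMB3 was higher (1.22 ± 0.28), a call lost without parental replicate 3 (0.82, adjusted p = 0.0519).

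Proteases that cut matrix went the other way. Of 14 measured proteases and inhibitors 5 were higher, MMP1, MMP3, PLAU, its receptor PLAUR and ADAMTS1, and 1 lower, MMP2, with a median of 0.54. MMP3, the stromelysin, read 2480, 2060 and 2260 in resistant cells against 184, 260 and 186 (3.43 ± 0.28, adjusted p = 4.08e-11). The collagenase MMP1 read 191, 152 and 215 against 65.1, 50.7 and 78.2 (1.49 ± 0.27), and the metalloprotease ADAMTS1 411, 445 and 482 against 43.7, 88.0 and 84.4 (2.64 ± 0.28). MMP3 rose with the drugs in both lines, by 1.99 ± 0.28 in parental and 2.16 ± 0.32 in resistant cells, so that its line difference stayed near that of DMSO (3.26 ± 0.32). MMP2, the gelatinase, was lower at 358, 454 and 303 against 2040, 1290 and 1260 (-2.02 ± 0.25). PLAUR, named after its values were seen, was at 1.35 ± 0.17. The urokinase gene PLAU (2.26 ± 0.66) lost its call without the 15 high-ratio arrays (1.76, adjusted p = 0.203) and when resistant replicate 1 or 2 or parental replicate 1 or 2 was left out (1.79 to 2.23).

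The ligands and binding proteins of the TGF-beta family held some of the widest gaps, with 2 of 16 measured members higher and 3 lower. FST, follistatin, a secreted inhibitor of activins, read 4100, 5900 and 4810 in resistant cells against 198, 108 and 136 (5.07 ± 0.24, adjusted p = 3.45e-17). In DMSO it had stood at 8390 and 6470 against 2220, 2060 and 2510. The parental level fell by 3.96 ± 0.24 with the drugs, while the resistant change of -0.59 ± 0.27 was not called, and the change of the line difference was 3.36 ± 0.36 (adjusted p = 4.74e-07). BMP4, a bone morphogenetic protein, read 68.9, 103 and 109 against 3.75, 3.89 and 3.39 (3.87 ± 0.50). PMEPA1, a TGF-beta target that limits SMAD signalling, read 3.14, 18.4 and 22.6 against 1410, 1380 and 1320 (-6.54 ± 0.59, adjusted p = 2.98e-10). The BMP target ID1 (-1.22 ± 0.32) and the latent TGF-beta binding protein LTBP1 (-1.58 ± 0.31) were the other members called lower. The ID1 call was lost after centring (-0.93) and without resistant replicate 1 (-0.93) or parental replicate 2 (-1.02, adjusted p = 0.0609). GDF15, a stress-induced distant member of the family, is taken with the p53 targets below.

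Growth factors that feed receptor tyrosine kinases differed in both directions. Of 15 measured ligands 4 were higher, HBEGF, FGF2, KITLG and NRG1, and 1 lower, TGFA, with a median of -0.27. HBEGF, which activates EGFR and ERBB4, read 469, 420 and 455 against 97.0, 62.0 and 9.12 (3.40 ± 0.39, adjusted p = 7.26e-08). It fell with the drugs by 3.61 ± 0.39 in parental and by 1.78 ± 0.44 in resistant cells. FGF2, basic fibroblast growth factor, read 219, 292 and 250 against 45, 33.4 and 36.4 (2.64 ± 0.49, adjusted p = 0.000165).

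KITLG, the ligand of the receptor KIT, read 1300, 1020 and 1180 against 158, 281 and 253 (2.36 ± 0.33), but with all probe sets averaged it was not called (1.09, adjusted p = 0.122). The neuregulin gene NRG1, the ligand of ERBB3, read 659, 531 and 730 against 327, 243 and 370, a narrower gap (1.03 ± 0.19). TGFA, another EGFR ligand, read 39.5, 43.1 and 42.2 against 116, 148 and 174 (-1.73 ± 0.29). The TGFA gap was much wider in DMSO (-4.08 ± 0.32), since the parental signal fell from 1950, 2310 and 1500 by 3.69 ± 0.29 with the drugs and the resistant signal by 1.33 ± 0.32. The change of that difference was 2.36 ± 0.43 (adjusted p = 0.00191). With all probe sets averaged neither TGFA (-0.98, adjusted p = 0.0868) nor NRG1 (0.68, adjusted p = 0.184) was called in the combination, and NRG1 fell under the size threshold without resistant replicate 3 (0.93) or parental replicate 2 (0.86).

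Among 18 measured receptor tyrosine kinases 1 was higher and 3 were lower. FGFR3, a receptor for fibroblast growth factors, read 28.2, 26.3 and 53 against 534, 361 and 347 (-3.47 ± 0.49), and ERBB3 was described above. The insulin-like growth factor receptor IGF1R read 437, 337 and 233 against 1320, 732 and 580 (-1.33 ± 0.28). Both rose in parental cells with the drugs, by 3.41 ± 0.49 and 1.47 ± 0.28, and neither change was called in resistant cells (1.06 ± 0.54 and 0.59 ± 0.31). MET, the receptor of hepatocyte growth factor, was called higher at 1.04 ± 0.26, just past the size threshold, and fell under it with all probe sets averaged (0.61), without the 15 high-ratio arrays (0.81), after quantile normalization (0.91) and without resistant replicate 3 (0.96) or parental replicate 1 (0.81). IGF1R fell just under it without parental replicate 1 (adjusted p = 0.0232). IGFBP3 and IGFBP5, which bind insulin-like growth factors in the medium, diverged. IGFBP3 was higher at 1690, 1470 and 1960 against 175, 119 and 82.2 (3.79 ± 0.20, adjusted p = 6.74e-16), and IGFBP5 lower at 17.5, 2.99 and 4.10 against 443, 423 and 403 (-5.51 ± 0.64).

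Both lines had received the same RAF and MEK inhibitors, and the ERK output list shows how far these genes were lowered in each. Of 21 ERK output genes 5 were higher in resistant cells, DUSP5, SPRED2, ETV5, FOSL1 and MYC, and 0 lower, with a median of 0.32. In DMSO 1 of the 21 was higher, DUSP5, and 1 lower, IER3. The drugs themselves lowered most of the list in both lines. From DMSO 16 of 21 fell in parental cells (median -2.63) and 15 of 21 in resistant cells (median -2.25), where the comparison had 2 DMSO arrays. Genes called lower with the combination made up 3.63% of all genes in parental and 1.03% in resistant cells, and genes called in either direction 10.6% and 4.86%. No ERK output gene was called in the change of the line difference (median 0.41, 0.04 over all genes).

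MYC, which drives growth and ribosome production, read 190, 230 and 270 in resistant cells against 67.6, 59.6 and 6.73 (2.73 ± 0.62, adjusted p = 0.00192). MYC was also higher in the clone without drug, at 732 to 1230 against 189 to 297 in DMSO. Those arrays did not overlap, though the DMSO difference was not called. FOSL1, a subunit of the AP-1 factor, read 543, 537 and 547 against 355, 161 and 135 (1.44 ± 0.29, adjusted p = 0.000568). It fell from DMSO by 3.94 ± 0.29 in parental and 2.25 ± 0.33 in resistant cells. For FOSL1 the resistant arrays were close together and every one was above every parental array. SPRED2, an inhibitor of RAS to RAF signalling, read 99.7, 197 and 160 against 35.9, 73.8 and 44.6 (1.52 ± 0.36, adjusted p = 0.00297).

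ETV5 read 60.1, 26.4 and 63.0 against 15.9, 4.52 and 14.3, low signals in which the call (1.90 ± 0.58, adjusted p = 0.0243) was lost when all probe sets were averaged (0.32, adjusted p = 0.69) and when resistant replicate 1 or 3 or parental replicate 2 was left out (1.47 to 1.72). DUSP5, a nuclear ERK phosphatase, read 117, 103 and 145 against 38.8, 90.6 and 50.9 (1.05 ± 0.25), and was not called without the 15 high-ratio arrays (0.82, adjusted p = 0.0622) or when resistant replicate 3 or parental replicate 1 or 3 was left out (0.80 to 0.98). In DMSO its gap had been 2.27 ± 0.28, and it fell by 3.68 ± 0.28 in resistant cells, more than the 2.46 ± 0.25 in parental cells, without a call for the difference of these changes (-1.22 ± 0.37, adjusted p = 0.149).

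Among members not called, DUSP6, DUSP4 and SPRY2 gave overlapping signals in the lines. DUSP6, the cytoplasmic ERK phosphatase, read 27.3, 4.6 and 17.5 in resistant and 23.6, 0.82 and 21.5 in parental cells, where DMSO arrays of both lines had read 1410 to 2900. The groups overlapped (0.32 ± 0.57, adjusted p = 0.81), and the sign turned with the actin ratio as a covariate. DUSP4 overlapped as well at 52.9, 78.0 and 49.2 against 86.7, 57.2 and 79.2 (-0.30 ± 0.23). SPRY2, which blocks receptor signalling upstream of RAS, read 62.7, 50 and 12.6 against 52.2, 3.11 and 3.34 and was not called (1.58 ± 0.72, adjusted p = 0.167). It was called without the 15 high-ratio arrays (2.24, adjusted p = 0.0122) and without parental replicate 1 (2.64, adjusted p = 0.0117). IER3, an early response gene, read 219, 268 and 180 against 443, 391 and 389 (-0.88 ± 0.18), and CCND1, cyclin D1, 210, 244 and 217 against 382, 245 and 286 (-0.42 ± 0.30). Both were lower in the clone without overlap, and both were under the size threshold. For CCND1 the nearest arrays read 244 against 245, and the difference was small against its standard error. Without resistant replicate 2 IER3 was called (-1.03, adjusted p = 0.000406). HMGA2, a chromatin protein, was at 0.75 ± 0.20. Every resistant array was above every parental array for 9 of the 21 genes and below for 4. The shares of such separation over all genes were 14.3% and 16.9%.

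**Figure D3:**
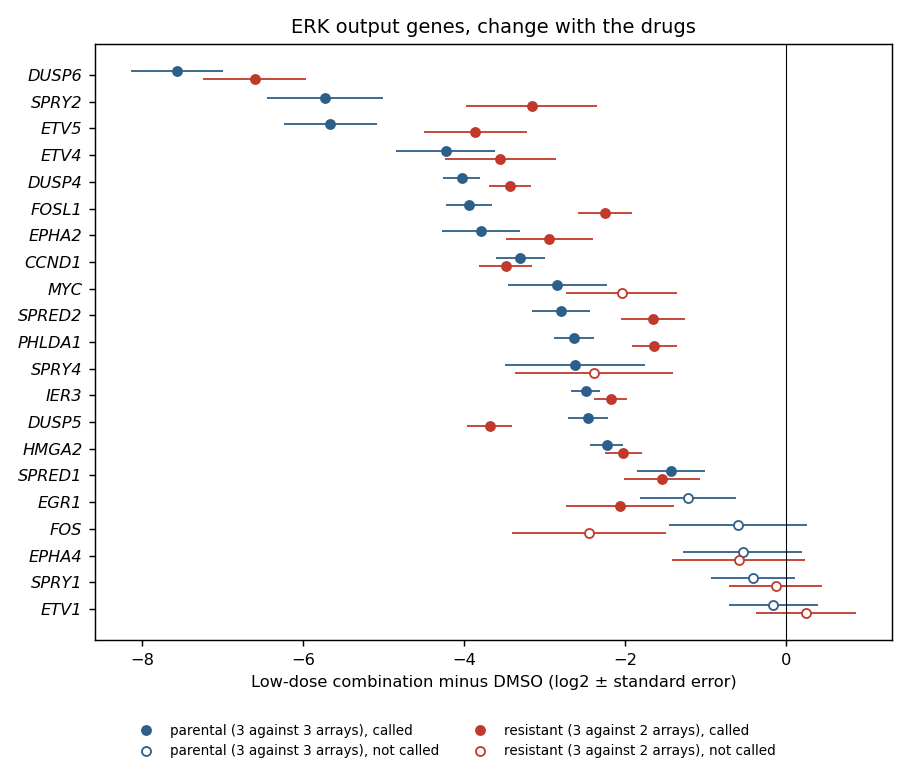
Log2 change from DMSO to the low-dose combination for 21 ERK output genes in parental (blue, 3 against 3 arrays) and resistant cells (red, 3 against 2 arrays), with bars for the standard error and filled points for called genes. Most genes fell in both lines, DUSP6 by 7.56 in parental and 6.60 in resistant cells, and FOSL1, SPRY2 and ETV5 have the resistant point to the right of the parental one.

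Only 8 of the 13 listed kinases of the pathway were measured. MAP3K8, a kinase that activates MEK independently of RAF, was the 1 called. It read 32.0, 21.1 and 31.9 in resistant and 11.3, 1.06 and 0.85 in parental cells, all below the median of all signals (2.39 ± 0.78, adjusted p = 0.0374). That call was lost without the 15 high-ratio arrays (2.94, adjusted p = 0.063), when any 1 array but parental replicate 1 was left out (2.05 to 2.57) and when the fit used only these groups (adjusted p = 0.0565). MAP2K1, encoding MEK1, read 585, 646 and 560 against 293, 475 and 461, without overlap and without a call (0.57 ± 0.32, adjusted p = 0.286). MAP2K2, encoding MEK2, read 794, 677 and 806 against 1040, 643 and 824 and overlapped (-0.11 ± 0.30), with a sign that turned under centring on the median (0.17). MAPK3, encoding ERK1, was at -0.47 ± 0.25.

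Proliferation genes were slightly higher as groups in resistant cells under drug, with few called. At an adjusted p under 0.05 with no size threshold, limma passed 8 of 20 replication and 9 of 21 mitosis genes. Over all 18063 genes it passed 2295. The DNA replication list had 2 of 20 members called higher and 0 lower, with a median of 0.56. MCM2, a subunit of the replicative helicase, read 828, 1850 and 2300 against 467, 875 and 851, and here replicate 1 of the resistant cells fell among the parental values (1.11 ± 0.27, adjusted p = 0.00347). RFC4, of the clamp loader, read 825, 785 and 942 against 376, 435 and 434 (1.03 ± 0.20, adjusted p = 0.000258). Without the 15 high-ratio arrays RFC4 fell to 0.98, under the size threshold, which left 1 member called. Leaving out resistant replicate 3 or parental replicate 1 ended the calls of RFC4 (0.95 and 0.96) and MCM2 (0.81 and 0.82), and leaving out resistant replicate 2 that of MCM2 (0.97).

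The mitosis list had 1 of 21 called higher, CDK1, and 0 lower, with a median of 0.61, and in 15 of the 21 every resistant array was above every parental array. Over all genes the share of such separation upwards was 14.3%. CDK1, the kinase that starts mitosis, read 1880, 1060 and 1700 against 493, 865 and 821 (1.09 ± 0.36, adjusted p = 0.0405). With all probe sets averaged (0.50, adjusted p = 0.566) and without resistant replicate 1 or 3 or parental replicate 1 or 3 (0.83 to 1.2) CDK1 was not called. Without the 15 high-ratio arrays it was not called either (0.67, adjusted p = 0.257), and the list had 0 members called with a median of 0.51. After centring on the array median 5 members were called, and 6 of the replication list.

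The drug changes, which share arrays with this comparison, are set beside it. In parental cells 15 of 20 replication genes and 7 of 21 mitosis genes fell with the combination, with medians of -1.22 and -0.84, against 2 and 0 in resistant cells, with medians of -0.53 and -0.06. For 3 mitosis genes the change of the line difference was itself called, and these are named for that reason after their values were seen. AURKA, a spindle kinase, read 1740, 1240 and 1590 in resistant and 931, 790 and 926 in parental cells under drug, and its difference changed by 1.38 ± 0.20 (adjusted p = 7.99e-05). The cyclin CCNA2 (1.00 ± 0.25, adjusted p = 0.0351) and the checkpoint kinase TTK (1.15 ± 0.25, adjusted p = 0.0118) were the others, and both lost that call without the 15 high-ratio arrays (adjusted p = 0.162 and 0.0941). CCNA2 lost it in 15 of 24 settings and TTK in 5 of 24, and AURKA with all probe sets averaged (1.13, adjusted p = 0.498). CDKN1C, the CDK inhibitor p57, was the 1 gene lower among 11 CDK inhibitors, D cyclins and their kinases, at 2.30, 69.5 and 58.6 against 770, 479 and 558 (-4.39 ± 0.68). It was lower in DMSO too (-4.08 ± 0.76). Of 12 ribosome biogenesis genes 1 was called higher, the small subunit processing factor WDR43 (1.10 ± 0.20), with a median of 0.67 for the list. At an adjusted p under 0.05 with no size threshold, limma passed 8 of the 12, against 2295 of all 18063 genes. In 9 of the 12 every resistant array was above every parental array, against 14.3% over all genes. The WDR43 call was lost without the 15 high-ratio arrays (0.82, adjusted p = 0.054) and without resistant replicate 1 (0.90).

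YAP and its partner TAZ are transcriptional coactivators restrained by the Hippo pathway, and they act through TEAD factors that bind the letters GGAATG or the reverse CATTCC. The upstream windows of ANKRD1 and CCN2, a pair of long-known YAP targets, are shown because the first was higher in the resistant clone and the second was not, although both hold the motif, printed in capitals. The windows are the 250 bases before the RefSeq start (GRCh38.p14), at chr10:90921088-90921337 for ANKRD1 and chr6:131951373-131951622 for CCN2, both on the minus strand.
ANKRD1: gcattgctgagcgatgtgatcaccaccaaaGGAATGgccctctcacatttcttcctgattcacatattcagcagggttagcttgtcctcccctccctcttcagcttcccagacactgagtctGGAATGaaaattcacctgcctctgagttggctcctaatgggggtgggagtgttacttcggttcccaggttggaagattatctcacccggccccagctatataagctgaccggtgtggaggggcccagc
CCN2: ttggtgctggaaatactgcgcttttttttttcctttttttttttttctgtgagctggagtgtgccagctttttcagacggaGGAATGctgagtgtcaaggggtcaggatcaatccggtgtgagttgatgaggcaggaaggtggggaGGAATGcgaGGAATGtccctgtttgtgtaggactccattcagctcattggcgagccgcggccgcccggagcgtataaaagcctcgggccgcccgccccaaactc
ANKRD1 has 2 matches, 220 and 128 bases before the start, and CCN2 has 3, at 169, 104 and 95. Of the 11 measured list members 8 had windows in the table, and 5 of their 11 windows held the motif on either strand, against 11.9% of all 35116 windows. Of 4 called members with a window 3 held the motif, and F3 did not. Some members have more than 1 start, and each start counts as a window.

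In this list 6 of 11 members were higher in resistant cells and 0 lower, with a median of 1.06, the highest of the 32 lists. Without the 15 high-ratio arrays 5 were higher. ANKRD1, a muscle ankyrin repeat protein, read 601, 360 and 554 against 94.0, 33.7 and 15.5 (3.63 ± 0.41, adjusted p = 3.97e-08). F3, tissue factor, the trigger of blood clotting, read 221, 204 and 196 against 2.24, 26.9 and 33.7 (3.57 ± 0.60). CCN1, a secreted matricellular protein, read 2390, 3370 and 2790 against 409, 811 and 732 (2.17 ± 0.25). All 3 did not overlap and had been called higher in DMSO as well (2.57 ± 0.45, 3.34 ± 0.67 and 1.58 ± 0.28).

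AMOTL2, an angiomotin that binds YAP, was higher at 2330, 2310 and 2130 against 929, 911 and 780 (1.37 ± 0.14). CRIM1, a transmembrane protein that binds BMPs, was higher at 2670, 1590 and 1760 against 594, 593 and 556 (1.75 ± 0.21), and its change of the line difference was called (1.55 ± 0.31, adjusted p = 0.0056), though not without resistant DMSO replicate 2 (1.46, adjusted p = 0.0636). CCN2, connective tissue growth factor, named after its values were seen, read 203, 268 and 248 against 130, 218 and 211 and overlapped (0.39 ± 0.45, adjusted p = 0.685). In DMSO CCN2 had been higher in resistant cells (1.73 ± 0.51), and it fell with the drugs by 3.46 ± 0.51 there and by 2.12 ± 0.45 in parental cells.

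**Figure D4:**
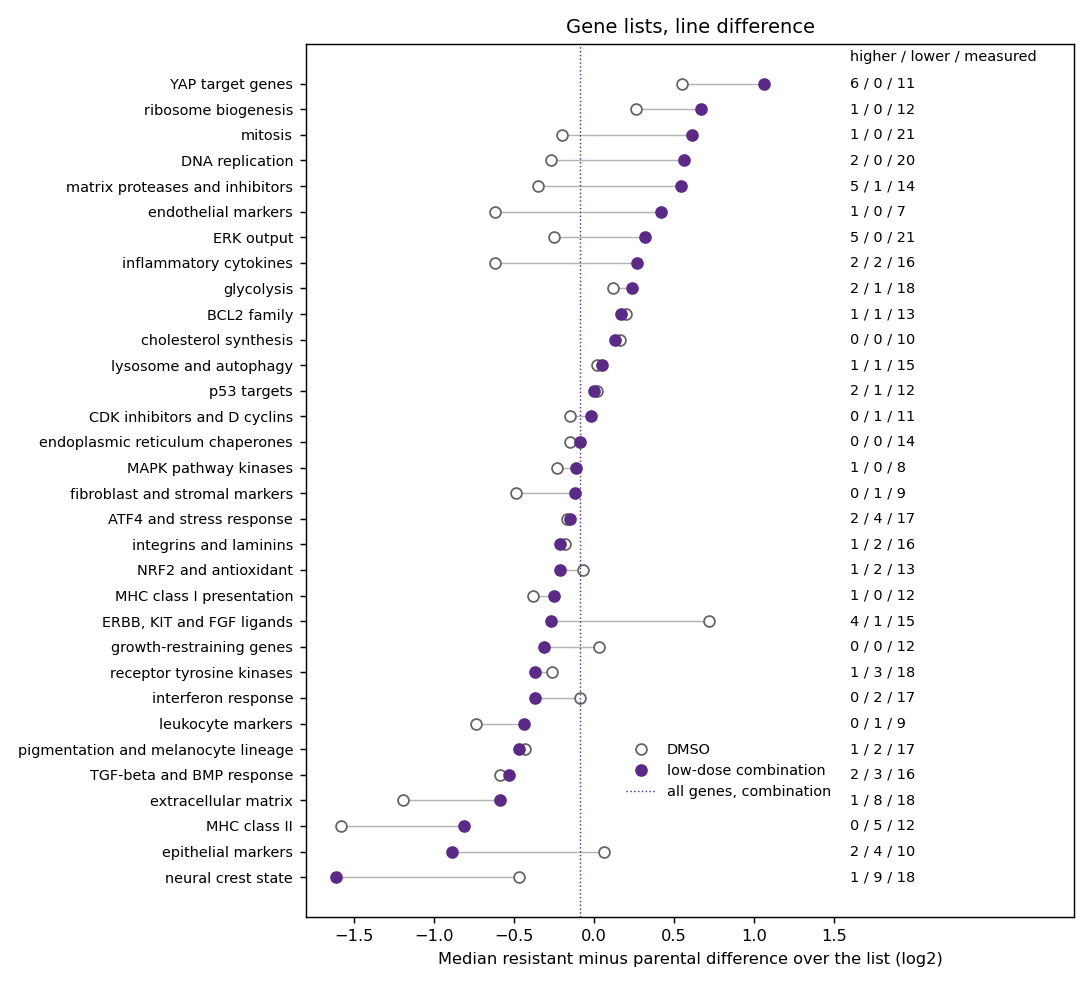
Median resistant minus parental log2 difference over the measured members of each of 32 gene lists, in DMSO (open circles) and in the low-dose combination (filled circles), with the dotted line at the median of all genes in the combination, -0.09. The numbers at the right count members called higher, called lower and measured in the combination; YAP target genes lie at the top (1.06) and the neural crest list at the bottom (-1.61).

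Signals to immune cells were mixed. Of 16 measured inflammatory cytokines 2 were higher and 2 lower. IL24, a cytokine of the interleukin 10 family, read 567, 486 and 546 against 92.3, 56.5 and 44.9 (3.05 ± 0.34, adjusted p = 3.15e-08). The parental level fell by 2.76 ± 0.34 with the drugs while the resistant change was -0.18 ± 0.38 and not called, and the line difference changed by 2.58 ± 0.51 (adjusted p = 0.00429), a call lost without resistant DMSO replicate 2 (2.40, adjusted p = 0.0586). The chemokine CCL20 was called higher from low signals, at 32.6, 15.4 and 42.5 against 8.56, 1.04 and 2.08 (2.37 ± 0.75), and lost the call without resistant replicate 1 or 3 or parental replicate 2 or 3 (2.05 to 2.26). IL1B read 94.1, 101 and 84.3 against 318, 264 and 234 (-1.51 ± 0.33) and IL11 168, 218 and 162 against 348, 475 and 473 (-1.23 ± 0.19), and both lost the call after centring on the array median (-1.22, adjusted p = 0.0563, and -0.94).

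Keratins, the filament proteins of epithelial cells, split by type. Of 10 measured epithelial markers 2 were higher, KRT8 and KRT18, and 4 lower, KRT14, KRT13, KRT5 and CD24. KRT14, of basal epidermis, read 7.19, 15.9 and 17.6 against 1820, 1410 and 1400 (-6.62 ± 0.60, adjusted p = 3.35e-10), and KRT13 3.69, 1.39 and 32.5 against 193, 251 and 198 (-4.45 ± 0.71). Both rose with the drugs in parental cells, by 3.38 ± 0.60 and 5.57 ± 0.71. KRT8, of simple epithelia, read 1480, 1340 and 1660 against 237, 264 and 200 (2.67 ± 0.19), with its partner KRT18 at 1.21 ± 0.19. KRT18 is named after its values were seen. KRT5 was called at -2.76 ± 0.81 and lost that call without resistant replicate 3 (-2.10, adjusted p = 0.144) or parental replicate 2 (-2.64, adjusted p = 0.0652). CD24, a surface glycoprotein, rose strongly with the drugs in both lines, from 45.2 to 79.8 over the 5 DMSO arrays to 1270, 1230 and 1210 in resistant and 3080, 3540 and 3970 in parental cells (-1.5 ± 0.17).

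Regulators of cell death and stress held called differences in both directions, and several of these calls were lost in other settings. The share called over all genes was 6.36%. Of 13 measured BCL2 family members 1 was higher and 1 lower. PMAIP1, the pro-death protein NOXA, read 903, 810 and 852 in resistant against 117, 170 and 167 in parental cells (2.5 ± 0.22, adjusted p = 1.26e-10). In DMSO both lines had been high, at 1320 and 1550 against 826, 847 and 980. The parental level fell by 2.54 ± 0.22 and the resistant change of -0.74 ± 0.24 was under the size threshold, and the line difference changed by 1.80 ± 0.32 (adjusted p = 0.00175), which was not called after centring (1.82, adjusted p = 0.102). BMF, another pro-death member, read 8.22, 81.1 and 38.4 against 335, 334 and 301 (-3.27 ± 0.63). It rose in parental cells with the drugs by 4.14 ± 0.63, while the resistant change (1.34 ± 0.70) was not called. For the anti-death members no call was made.

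Of 12 measured p53 targets 2 were higher and 1 lower. GDF15 read 210, 320 and 299 against 32.5, 12.6 and 18.2 (3.61 ± 0.49), but averaging all its probe sets gave 0.86 (adjusted p = 0.224). The death receptor TNFRSF10B was higher (1.13 ± 0.15) and the oxidoreductase TP53I3 lower (-1.06 ± 0.15). TNFRSF10B fell under the size threshold with all probe sets averaged (0.73), and TP53I3 after centring (-0.78), without the 15 high-ratio arrays (-0.99) and without parental replicate 1 (-0.98). In the ATF4 list of the amino acid stress response 2 of 17 were higher, the serine synthesis enzyme PSAT1 (1.07 ± 0.19) and the stress-induced NUPR1 (1.01 ± 0.21, named after its values were seen), and 4 lower. PSAT1 was not called with all probe sets averaged (0.46, adjusted p = 0.626), after quantile normalization (0.96), without the 15 high-ratio arrays (0.81) or without parental replicate 1 (0.85), nor NUPR1 without resistant replicate 1 or parental replicate 2 or 3 (0.94 to 0.97). The lower ones were DDIT4, an inhibitor of mTORC1 (-1.11 ± 0.21), and the amino acid transporter subunits SLC7A11 (-1.20 ± 0.21), SLC3A2 (-1.41 ± 0.16) and SLC7A5 (-1.09 ± 0.14). SLC3A2 is the heavy chain shared by SLC7A11 and SLC7A5, and it read 665, 543 and 860 against 1830, 1920 and 1660. After centring on the array median 1 member of the list was lower in place of 4. Without resistant replicate 1 DDIT4 (-0.93) and SLC7A5 (-0.91) fell under the size threshold, as did DDIT4 without parental replicate 2 (-0.96) and SLC7A5 without the 15 high-ratio arrays (-0.87). In the antioxidant list 1 of 13 was higher and 2 lower. TXNRD1, thioredoxin reductase, was higher at 7860, 7280 and 8540 against 1650, 1870 and 1860 (2.14 ± 0.22), while AKR1C1 (-1.21 ± 0.17) and the cystine transporter SLC7A11 were lower. AKR1C1 was not called after centring (-0.92) or with all probe sets averaged (-0.84, adjusted p = 0.131).

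Of 18 measured glycolysis genes 2 were higher and 1 lower, with a median of 0.24. The glucose transporter SLC2A1 read 692, 558 and 726 against 1720, 1460 and 1200 (-1.14 ± 0.19), and SLC2A3 158, 130 and 143 against 75.6, 58.4 and 42.3 (1.28 ± 0.30). SLC2A1 fell under the size threshold after centring (-0.85), and SLC2A3 with the actin ratio as a covariate (0.97). Hexokinase HK2, which traps glucose in the cell, read 2200, 1440 and 1720 against 386, 441 and 533 (1.96 ± 0.20), and was not called with all probe sets averaged (0.87, adjusted p = 0.0726). SLC2A12, a further transporter of this family, was far lower, as described with the drug-dependent genes. In the lysosome list MITF was higher and TFEB, its relative, lower (-2.05 ± 0.64) among 15 measured, and the TFEB call was lost without the 15 high-ratio arrays (-2.17, adjusted p = 0.119), with all probe sets averaged (-1.38) and without resistant replicate 3 (-1.29) or parental replicate 1 (-1.68). The endoplasmic reticulum chaperones (14 measured), cholesterol synthesis (10) and growth-restraining genes (12) had 0 members called, with medians of -0.09, 0.13 and -0.31. At an adjusted p under 0.05 with no size threshold, limma passed 1, 2 and 4 of them.

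The genes with the widest gaps included several outside these lists. KISS1 read 573, 533 and 469 against 11.1, 3.70 and 7.15 (5.77 ± 0.45, adjusted p = 1.33e-11), a difference close to that in DMSO (5.93 ± 0.50). NPPB, the B-type natriuretic peptide precursor, read 184, 277 and 208 against 9.72, 1.98 and 5.44 (4.82 ± 0.59). STXBP6, a syntaxin-binding protein, read 319, 189 and 183 against 19.7, 1.35 and 4.12 (4.71 ± 0.67). For all of these the parental signals were below the median of all signals on every array. EVI2A, a gene that lies within an intron of NF1, read 876, 775 and 719 against 34.6, 72.6 and 41.2 (3.99 ± 0.41), and it rose with the drugs in resistant cells (2.10 ± 0.46). On the lower side OLFML2A, an olfactomedin-like matrix protein, read 2.66, 7.24 and 2.93 against 248, 418 and 379 (-5.66 ± 0.47), and the sialyltransferase ST6GALNAC2 7.96, 6.49 and 1.70 against 222, 162 and 188 (-4.65 ± 0.64).

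Whether the drugs widened or narrowed the gap between the lines was tested as the change of the line difference from DMSO to the combination, which shares all its arrays with the values above. It was called for 142 genes (0.786%), 82 upwards (0.454%) and 60 downwards (0.332%). The largest downward values came from genes that rose in parental cells and stayed low in the clone. SLC2A12 read 581, 640 and 765 in parental cells under drug and 4.92, 4.41 and 6.86 in DMSO, a rise of 6.34 ± 0.44. In resistant cells it read 6.84, 7.66 and 28.1 under drug and 10.9 and 17.4 in DMSO (-0.19 ± 0.49), and the change of the line difference was -6.53 ± 0.66 (adjusted p = 1.55e-07). OLFML2A (-5.58 ± 0.70), ST6GALNAC2 (-4.39 ± 0.96) and the transcription factor BHLHE41 (-4.25 ± 0.55) followed the same course, as did the WNT pathway modulators DACT1 (-4.10 ± 0.88) and DKK3 (-3.86 ± 0.50). For DKK3 the parental arrays rose from 67.4, 39.8 and 21.8 to 475, 530 and 537, while the resistant arrays read 31.2, 31.2 and 29.1. With all probe sets averaged the change was not called for DKK3 (-1.34, adjusted p = 0.695) or BHLHE41 (-1.48, adjusted p = 0.341). DACT1 and ST6GALNAC2 lost the call without the 15 high-ratio arrays (adjusted p = 0.0703 and 0.0771) and without resistant DMSO replicate 1 (-3.28 and -3.87, adjusted p = 0.178 and 0.136).

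Several of the largest upward values came from genes that fell in parental cells. NTM, neurotrimin, a neural adhesion molecule, read 269, 345 and 224 in resistant and 25.7, 27.8 and 47.8 in parental cells (2.97 ± 0.26, adjusted p = 1.26e-10). In DMSO the order was the opposite, with 144 and 142 against 578, 588 and 500 (-1.93 ± 0.29), and the change of the line difference was 4.91 ± 0.39 (adjusted p = 4.7e-10). EMP1, an epithelial membrane protein, fell by 4.29 ± 0.30 in parental cells to 106, 180 and 221, and stood at 1610, 982 and 1310 in resistant cells (change of the line difference 3.38 ± 0.45). SHB, an adaptor of receptor kinases, fell by 3.96 in parental cells, while its resistant change of -1.11 was not called (change of the line difference 2.84 ± 0.58). These calls were lost when all probe sets were averaged for NTM (2.08, adjusted p = 0.127), EMP1 (1.59, adjusted p = 0.0745) and SHB (1.08, adjusted p = 0.766), and for SHB also without resistant DMSO replicate 2 (2.58, adjusted p = 0.0906).

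Other genes differed without drug and less under it. ALDH1A3, a retinaldehyde dehydrogenase, had been lower in DMSO (-3.42 ± 0.26), rose in resistant cells by 1.38 ± 0.26 and fell in parental cells by 1.2 ± 0.23, so that -0.83 ± 0.23 was left in the combination. CYP1A1, a target of the aryl hydrocarbon receptor, read 131, 109 and 99.9 in resistant and 102, 112 and 99.0 in parental cells under drug, which overlapped (0.11 ± 0.50). In DMSO it had read 2.00 and 3.41 against 33.4, 47.6 and 28.1, and the call for its change was lost in 19 of 24 settings. That for ALDH1A3 was lost with all probe sets averaged (1.28, adjusted p = 0.508). TXNIP, an inhibitor of thioredoxin and of glucose uptake, named after its values were seen, rose in both lines, by 3.75 ± 0.22 in parental and 1.24 ± 0.24 in resistant cells, and its line difference went from 1.75 ± 0.24 to -0.76 ± 0.22.

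**Figure D5:**
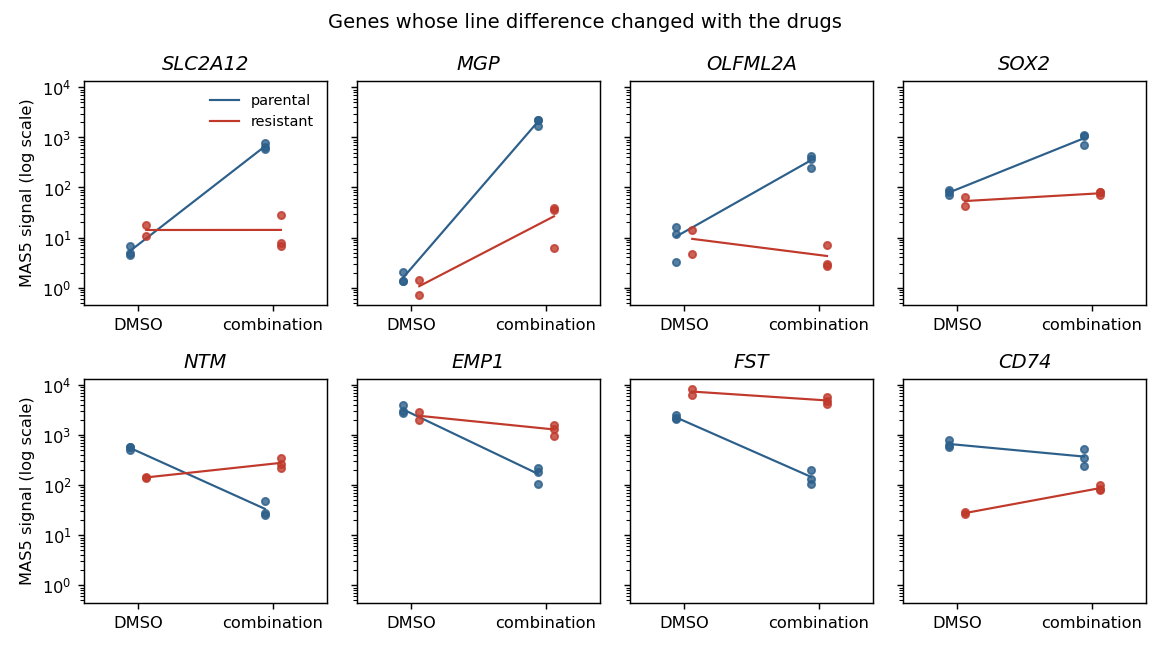
MAS5 signal on a log axis in DMSO and in the low-dose combination for 8 genes called in the change of the line difference, with 3 parental (blue) arrays per condition and 2 (DMSO) or 3 (combination) resistant (red) arrays, and lines joining the means. In the top row the parental signal rises and the resistant one stays below 100, and in the bottom row NTM, EMP1 and FST fall in parental cells while CD74 rises in resistant cells.

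How the gap between the lines changed with the step from 0.1 to 1 µM GSK436 depended on the fit. The line difference in the low-dose minus that in the high-dose combination was called for 4 genes (0.0221%), 1 upwards (0.00554%) and 3 downwards (0.0166%), and 1619 genes had an unadjusted p under 0.05 in limma. A fit of only these groups called 124 genes and one with array weights 281, while the fit without the 15 high-ratio arrays called 0. SLC7A11 read 223, 208 and 185 in resistant and 411, 589 and 442 in parental cells at the low dose, and 807, 961 and 1070 against 642, 679 and 692 at the high dose, where the order was reversed (-1.69 ± 0.29, adjusted p = 0.0163). RCAN1, an inhibitor of calcineurin, read 483, 434 and 533 against 958, 1220 and 1260 at the low dose and 1010, 1110 and 1130 against 670, 985 and 850 at the high dose (-1.63 ± 0.28, adjusted p = 0.0163). NREP, a neuronal regeneration related protein, read 219, 275 and 252 against 3130, 3090 and 2880 at the low dose and 335, 376 and 371 against 1940, 2250 and 2030 at the high dose (-1.09 ± 0.21, adjusted p = 0.0368). The keratin-associated KRTAP4-9 read 24.8 to 34.6 against 1.53 to 9.02 at the low dose. At the high dose it read 6.02 to 29 against 37.1 to 61.2, the reverse order (3.90 ± 0.71, adjusted p = 0.0259). Of these signals only the parental ones at the high dose were above the median of all signals. All 4 lost the call in many settings, KRTAP4-9 in 14 of 24, NREP in 16 of 25, RCAN1 in 11 of 25 and SLC7A11 in 12 of 25, among them most that left out 1 array. Among the genes with the widest gaps, KISS1 and SOX10 had similar levels at the high dose. KISS1 read 347, 441 and 499 against 19.7, 6.04 and 5.79, and SOX10 2.11, 4.02 and 4.30 against 1360, 871 and 1180. Parental MGP was lower at the high dose, at 985 to 1150 against 1720 to 2230 at the low dose. Parental SLC2A12 was lower there too, at 407 to 480 against 581 to 765. Neither gene was called in the test between doses.

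Over 17 pigmentation genes the summed signal was 3090 to 3520 in resistant and 2350 to 2700 in parental arrays. A sum of linear signals follows its strongest members. In the same list 1 gene, MITF, was called higher and 2 lower, with a median difference of -0.47. Over 10 epithelial markers the sum was 10700 to 12800 against 10100 to 10700. Over 9 leukocyte markers the sum was 151 to 274 in resistant and 239 to 558 in parental arrays, with lysozyme LYZ the 1 called member (-3.05 ± 0.83), a call lost with all probe sets averaged (-1.58) and without resistant replicate 3 (-2.70) or parental replicate 1 (-2.81). Over 9 fibroblast and stromal markers it was 642 to 721 against 760 to 884, with COL1A1 the 1 called member. Over 7 endothelial markers it was 160 to 296 against 123 to 227, with the receptor TIE1 called higher (1.5 ± 0.36). Their part in the differences above was not tested.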

How the data were processed

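RNA of A375 and of the resistant clone was hybridised to 38 Affymetrix arrays of 1 colour, which form 14 groups of line and treatment. The deposited values are linear signal intensities that the authors computed with MAS5 (version not given in the sources used here), per the submitters' processing notes. Trimmed means of the 38 arrays lay between 149.84 and 149.96, so a global scaling had been applied, and no detection calls were used here. Genes were named through the platform annotation of 2016, with 41037 of 41091 probe sets that name 1 gene matched to RefSeq (GRCh38.p14). Another 1801 probe sets name several genes and 11721 none, and neither kind was used. Probe sets above 34.88 on at least 2 arrays were kept (35882 of 54675), the one with the highest mean log2 signal stood for each gene, and log2(signal + 2.8) went into limma 3.58.1 (R 4.3.3) as 14 group means, 24 residual degrees of freedom, eBayes with trend and Benjamini-Hochberg adjustment over 18063 genes. All 6 comparisons come from this fit.

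The comparison, the 32 gene lists (439 of 482 genes measured) and the named genes were chosen with earlier results of these data known. Eligible genes were the 15 widest gaps in each direction among called genes with separate arrays, up to 5 called members of a list, all ERK output, pathway kinase and class II genes, and the 8 and 3 largest values in each direction of the changes with drug and with dose. A selection is printed, and exceptions are marked. Same-numbered arrays of the lines did not deviate together (correlations of 0.0318, 0.0195 and 0.025), so numbers were not used as pairs. Alternatives were other scalings, pseudocounts, filters, probe set choices, variance models, an actin covariate, array weights, a block and leaving out each array. A fit without arrays of actin ratio over 20 or GAPDH ratio over 3 was added after seeing the data; this removed 15 of the 38 arrays, in the low-dose groups replicate 1 of each line. On simulated data for the main comparison, 48% of genes changed by 1.5 and 71% of those changed by 2.5 on the log2 scale were recovered, with 5 false calls. Python 3.11.15, pandas 2.3.3, numpy 2.4.6 and matplotlib 3.10.9 were used for sequences and plots.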

Additional observations from a re-analysis of the deposited data

Results flagged for a closer look

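The difference between the lines itself changed with the drugs, by the test of that change, in 142 genes. Among those named, the change of the line difference was upwards for NTM (4.91), EMP1 (3.38), FST (3.36), CYP1A1 (2.92), SHB (2.84), ALDH1A3 (2.59), IL24 (2.58), CD74 (2.43), TGFA (2.36), IGFBP3 (1.91), PMAIP1 (1.80), AKR1C1 (1.57), CRIM1 (1.55), AURKA (1.38), TTK (1.15) and CCNA2 (1.00). It was downwards for SLC2A12 (-6.53), MGP (-6.22), OLFML2A (-5.58), ST6GALNAC2 (-4.39), BHLHE41 (-4.25), KRT13 (-4.17), DACT1 (-4.10), DKK3 (-3.86), SOX2 (-3.01), TXNIP (-2.51) and CD24 (-1.04). The call was lost for CYP1A1 in 19, KRT13 in 17, CCNA2 in 15 and CD24 in 12 of 24 settings. With all probe sets averaged it was also lost for NTM, EMP1, SHB, ALDH1A3 (1.28), CD74 (0.93), IGFBP3 (1.6, adjusted p = 0.0721), AKR1C1 (0.02), AURKA (1.13), BHLHE41 (-1.48), DKK3 (-1.34) and SOX2 (-2.13).

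By the same test between doses, the line difference in the low-dose minus that in the high-dose combination differed in 4 genes: KRTAP4-9 (3.90), NREP (-1.09), RCAN1 (-1.63) and SLC7A11 (-1.69). The calls were lost in 14 of 24, 16 of 25, 11 of 25 and 12 of 25 settings.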

How the results depend on the processing

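The count of 1148 genes became 1917 with the actin ratio as a covariate and stayed between 965 and 1480 under the other settings, 973 to 1109 when any 1 array was left out. The DMSO count of 657 lay between 398 and 627 with 1 array left out, lowest without resistant DMSO replicate 2. The 142 changes of the line difference became 58 after centring on the array median, 81 with all probe sets averaged, 280 with the actin covariate and 352 with array weights, and 73 to 132 with 1 array left out, lowest without the same DMSO array. Resistant genes changed by the drugs numbered 877, 536 after quantile normalization and 529 to 771 with 1 array left out. The 4 genes that differed between doses became 2 after quantile normalization, 0 after centring, 1 with probe sets averaged, 124 in a fit of only these groups, 281 with array weights, 0 without arrays of high control ratio and 0 to 6 with 1 array left out. The cause was not tested.

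Signs turned for CIITA with the actin covariate (-0.38) and with 1 array left out (-0.69 to 1.19, lowest without parental replicate 3), for DUSP6 with that covariate (-0.05) and with 1 array left out (-0.61 to 0.90, lowest without parental replicate 2, and -0.11 without resistant replicate 1), for MAP2K2 after centring (0.17), with array weights (0.06), without the arrays of high ratio (0.02) and with 1 array left out (-0.29 to 0.06, highest without parental replicate 1), and for CYP1A1 without the arrays of high ratio (-0.02). None of these was called. The replicate number as a block gave 1140 genes for the main comparison. SOX10 ranged from -7.31 to -4.57 over all settings and NGFR from -6.74 to -4.02, since resistant signals near 0 make the size depend on the pseudocount.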
